A study of Mus musculus with 6 samples.

Results

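The Wnt antagonists measured here are the 10 genes Sfrp1, Sfrp2, Sfrp4, Wif1, Dkk2, Dkk3, Nkd1, Nkd2, Rnf43 and Znrf3, of 21608 genes named on the array. Members were taken as every non-control spot whose annotation names one of these genes, which gave 12 probes of 55681 in all, 1 probe for each gene and a pair for Nkd1 and for Nkd2. RNA came from 1G11 cells, a mouse microvascular endothelial line of strain C57BL/6NCrLBR, exposed for 6 h to the supernatant of N202.1A murine mammary cancer cells. The 1G11-SOD3 cells overexpress SOD3, the extracellular superoxide dismutase, whereas the 1G11-mock cells do not, and 3 biological replicates of each line were hybridized to 6 single-color arrays. The conditioned medium was common to both lines, so that no array shows cells without it. Each of the 2 lines is a transfected derivative of 1G11, and a property of a derived line cannot be told apart from an effect of SOD3 here.

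Wnt proteins signal by binding Frizzled and Lrp5 or Lrp6 at the cell surface, which spares beta-catenin from degradation and lets it act with TCF/LEF factors on target genes. Antagonists act at several levels. Secreted Frizzled-related proteins (Sfrp1, Sfrp2, Sfrp4) and Wif1 bind Wnt ligands outside the cell, Dkk2 binds the Lrp co-receptors, Dkk3 is a divergent member of the Dickkopf family, Nkd1 and Nkd2 bind Dishevelled inside the cell, and the membrane ubiquitin ligases Rnf43 and Znrf3 remove Frizzled from the surface. In vessels, Wnt signaling is known for its part in vascular growth and barrier formation.

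The sequences of the 4 probes on which the results turn are shown by their first 30 of 60 bases, 5′ to 3′: the probes of the genes called different, and the second Nkd2 probe because it was not called where the first was.
Sfrp2, A_51_P520849: tcggcatctaagtcttcaaacatttcgttg
Rnf43, A_55_P2079619: ctgaaccagacagaaagatgcttgaatcag
Nkd2, first probe, A_55_P2143279: tccaacaccctcacacagacatacatgtag
Nkd2, second probe, A_55_P2143282: tgagtttatgaaagttgggcatgatgcctt
None of the 12 probes shared a stretch of 20 bases with another probe of the array. The array annotation, which does not name its genome build, places the Sfrp2 probe at chr3:83577864-83577923, the Rnf43 probe at chr11:87548958-87549017, the first Nkd2 probe at chr13:73956776-73956835 and the second at chr13:73957581-73957640. Exon and UTR annotation of that build was not used here.

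Most of these antagonists were at or near background. According to the scanner software, only 1 of the 12 probes, the first Nkd2 probe, was well above background on all 6 arrays. Another 6 probes were so on some arrays: Znrf3 on 2 1G11-mock and 3 1G11-SOD3 arrays, Sfrp2 on 0 and 3, Rnf43 on 2 and 0, Dkk3 on 0 and 2, Sfrp1 on 0 and 1, and Sfrp4 on 1 and 0. The probes of Dkk2 and Wif1, both probes of Nkd1 and the second probe of Nkd2 were well above background on no array, which is 5 probes. Over all probes of the array, 16352 of 55681 were well above background on every array and 30261 on none.

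Some facts of the whole series bear on these values. Of 59305 non-control spots, the share well above background ran from 34.2% to 43.8% over the arrays, and no spot was saturated. All arrays of one line shared a slide row, so that line and slide row cannot be told apart. Bright spots in the central block of rows and columns, called the middle of the array, were lower on the 1G11-mock arrays. No spot of the 12 antagonist probes lay there, and so all 12 are given together as spots outside the middle. Sod3 itself, whose 1 spot does lie in the middle, had log2 intensities of 13.61, 12.66 and 9.86 in 1G11-mock cells, against 16.37, 16.30 and 16.26 in 1G11-SOD3 cells.

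**Figure D1:**
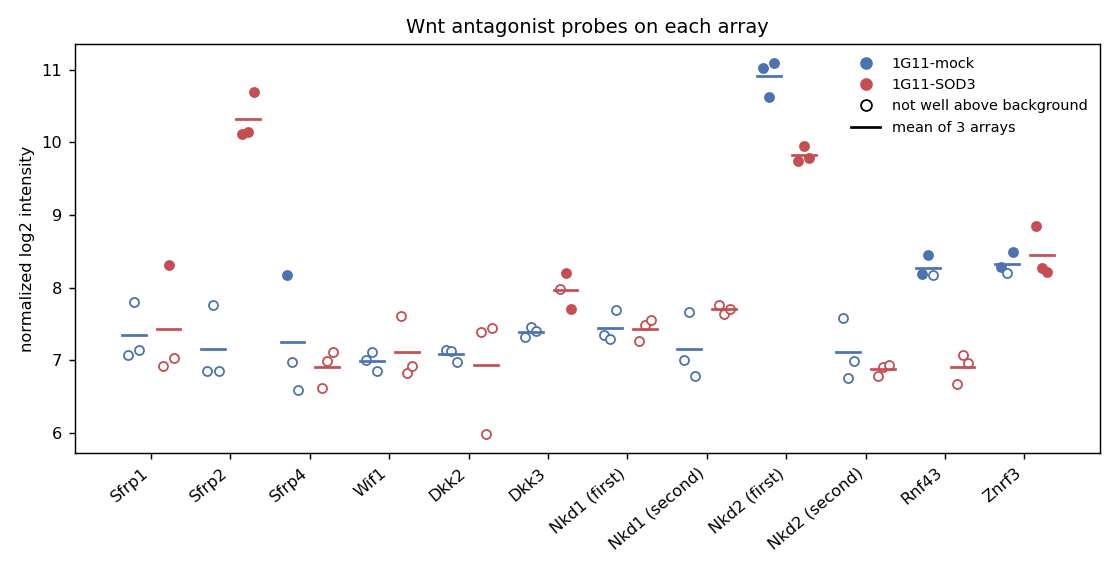
Normalized log2 intensity (y axis) of the 12 antagonist probes on each of the 3 1G11-mock (blue) and 3 1G11-SOD3 (red) arrays. Each point is 1 array, open points were not well above background, and the bars are means of 3 arrays. Sfrp2 was at 10.11 to 10.699 in 1G11-SOD3 cells with open points only in 1G11-mock cells, and the first Nkd2 probe has filled points throughout.

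Log2 intensities were compared between the lines with limma over all 55681 probes, and a probe was called at more than 2-fold and a Benjamini-Hochberg adjusted p under 0.05. Of the 12 antagonist probes, 1 was called higher (Sfrp2) and 2 lower (Rnf43 and the first Nkd2 probe) in 1G11-SOD3 cells, where 2.93% of all probes were called, 1.87% higher and 1.06% lower. Among probes well above background on all 6 arrays, 5.81% were called. The 3 arrays of one line did not overlap those of the other for 4 of the 12 probes (Sfrp2, Dkk3, Rnf43 and the first Nkd2 probe), against 20.6% of all probes. The median difference (1G11-SOD3 minus 1G11-mock, log2) was 0.04 over the 12 probes and -0.03 over all probes.

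Among the secreted Frizzled-related proteins, Sfrp2 rose in 1G11-SOD3 cells. Its log2 intensity was 6.86, 7.76 and 6.84 on the 1G11-mock arrays and 10.11, 10.15 and 10.699 on the 1G11-SOD3 arrays. Every 1G11-SOD3 array lay above every 1G11-mock array, by at least 2.35 on the log2 scale. Before normalization, the spot had mean intensities of 229 to 366 over a local background of 71 to 101 on the 1G11-mock arrays, and of 1300 to 2650 over 60.5 to 86 on the 1G11-SOD3 arrays. The fitted log2 difference was 3.17 (SE 0.298, 95% interval 2.51 to 3.82, n = 3 arrays per line, limma adjusted p = 0.00038). Since Sfrp2 was not well above background on any 1G11-mock array, its change is given as at least 5.39-fold, which sets the 1G11-SOD3 mean against the lowest signal well above background on each 1G11-mock array, or the probe's own where that was higher.

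The related genes Sfrp1 and Sfrp4 were not called. Sfrp1 had log2 intensities of 7.07, 7.81 and 7.14 in 1G11-mock and of 6.92, 8.31 and 7.04 in 1G11-SOD3 cells, so that the lines overlapped and 1 array alone, 1G11-SOD3 replicate 2, was well above background. Sfrp4 had 8.17, 6.97 and 6.59 in 1G11-mock and 6.62, 6.98 and 7.12 in 1G11-SOD3 cells, again with overlap and with 1 array, 1G11-mock replicate 1, well above background. Their log2 differences were 0.08 (95% interval -0.72 to 0.88) and -0.34 (-1.14 to 0.46), intervals that admit changes of over 1.5-fold in at least one direction. Wif1, the other secreted ligand-binding antagonist, lay between 6.83 and 7.60 on all 6 arrays, not well above background on any, with a log2 difference of 0.13 (-0.44 to 0.69).

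Neither Dickkopf gene was called. Dkk3 had log2 intensities of 7.33, 7.45 and 7.40 in 1G11-mock and of 7.99, 8.20 and 7.70 in 1G11-SOD3 cells. All 1G11-SOD3 arrays lay above all 1G11-mock arrays, but the log2 difference of 0.57 (SE 0.227) did not pass (limma adjusted p = 0.27). With 2 of 3 1G11-SOD3 arrays and no 1G11-mock array well above background, the bound was at least 1.05-fold higher. Dkk2 was well above background on no array and had a log2 difference of -0.14 (95% interval -0.92 to 0.63), its lowest value being 5.98 on 1G11-SOD3 replicate 2 and its others lying between 6.98 and 7.44.

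The membrane ubiquitin ligases differed in their values. Rnf43 fell in 1G11-SOD3 cells. Its log2 intensity was 8.19, 8.45 and 8.18 on the 1G11-mock arrays and 6.68, 7.08 and 6.96 on the 1G11-SOD3 arrays, with a gap of 1.10 between the lines. The log2 difference was -1.37 (SE 0.226, 95% interval -1.86 to -0.87, limma adjusted p = 0.0079). No 1G11-SOD3 array and 2 of 3 1G11-mock arrays were well above background, so that the change is given as at least 1.68-fold lower. These are dim spots, with intensities of 409 to 469 (1G11-mock) and 235 to 265 (1G11-SOD3) over a local background of 68 to 103. Without background correction the log2 difference was -0.80 (adjusted p = 0.02), under 2-fold, and the call was lost.

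Znrf3, the paralog of Rnf43, had log2 intensities of 8.29, 8.20 and 8.49 in 1G11-mock and of 8.85, 8.27 and 8.22 in 1G11-SOD3 cells, which overlapped. Its log2 difference was 0.12 (95% interval -0.42 to 0.66, limma adjusted p = 0.88). This interval leaves out a 2-fold change in either direction only for the normalized intensity, to which an offset was added. With the processed signal the log2 difference was -0.23 (SE 0.35). Whether the transcript itself changed by 2-fold was not tested. Rnf43 and Znrf3 are measured by different probes, and the difference between their changes was not tested.

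Of the Dishevelled-binding proteins, Nkd2 was called lower by the first of its probes and by this probe alone. The first probe had log2 intensities of 11.03, 10.63 and 11.10 in 1G11-mock and of 9.74, 9.95 and 9.78 in 1G11-SOD3 cells. The lines did not overlap, and the log2 difference was -1.09 (SE 0.229, 95% interval -1.60 to -0.59, limma adjusted p = 0.027), or 2.13-fold lower. The second Nkd2 probe, well above background on no array, had 7.58, 6.76 and 6.98 in 1G11-mock and 6.78, 6.91 and 6.94 in 1G11-SOD3 cells, with a difference of -0.23 (adjusted p = 0.74). Only the first probe rests on a signal above background. The 95% interval of the second, -0.79 to 0.33, overlaps that of the first, and the difference between the probes was not tested.

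The Nkd2 difference was smaller once the place of the spot was taken into account, and its call was near the threshold. The first Nkd2 probe lies in row 278 of column 1, at the edge of the array, where the 131 neighbouring spots that were well above background on at least 3 arrays (within 18 rows and 9 columns) had a median log2 difference of -0.65 (quartiles -0.92 and -0.47). With a smooth surface over row and column taken off each array, its difference was -0.34 (limma adjusted p = 0.41 with a single surface and 0.42 with separate surfaces for bright and dim spots). The processed signal gave -0.39 (adjusted p = 0.35). The call was also lost under 5 other alternatives, so that it was lost in 8 of 14 in all, and in 5 of 6 fits without 1 array, there with the difference about as large. It was -0.99 without background correction (adjusted p = 0.019, under 2-fold), -1.12 with an offset of 16, -1.01 with normexp values scaled to the 75th percentile, -0.99 with cyclic loess and -1.09 with a variance trend. In the fits without 1 array it was -1.16 to -1.003 where the call was lost, and -1.24 without 1G11-mock replicate 2, where it was kept. The part of the place in the difference was not tested further.

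The other antagonists called kept their calls with the surfaces. Sfrp2, in row 366 of column 82, had neighbours with a median log2 difference of -0.32 and its own difference was 3.45 with the single surface (limma adjusted p = 0.00062) and 3.28 with separate surfaces (adjusted p = 0.00021). Rnf43, in row 287 of column 124, had neighbours at -0.11 and was at -1.22 (adjusted p = 0.026) and -1.04 (adjusted p = 0.015). Its neighbours were well above background on at least 3 arrays, whereas Rnf43 was so on 2. In the fit with separate surfaces it therefore took that of the dim spots. With separate surfaces, 1.67% of all probes were called, and with the single surface 4.09%. Nkd1 was not called by either of its probes, which were well above background on no array and had log2 differences of -0.0042 (95% interval -0.50 to 0.50) for the first and 0.56 (-0.02 to 1.13) for the second.

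**Figure D2:**
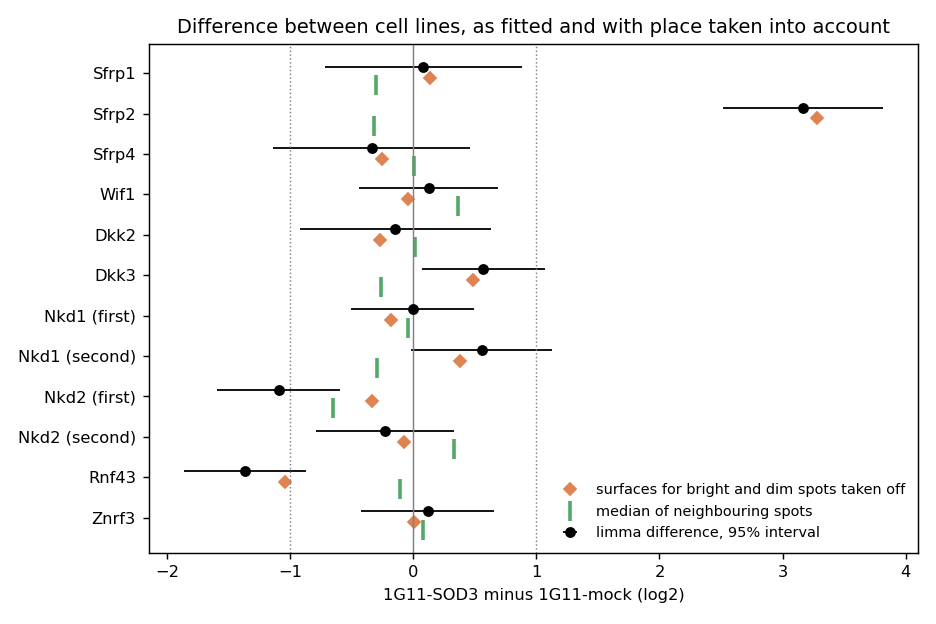
Log2 difference between 1G11-SOD3 and 1G11-mock cells (x axis) for each antagonist probe, as black points with 95% intervals from limma (n = 3 arrays per line), with diamonds for the value after separate surfaces for bright and dim spots were taken off and green marks for the median of neighbouring spots. Dotted lines mark 2-fold. Sfrp2 stayed near 3.28 and Rnf43 near -1.04 with the surfaces off, whereas the first Nkd2 probe went from -1.09 to -0.34.

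**Figure D3:**
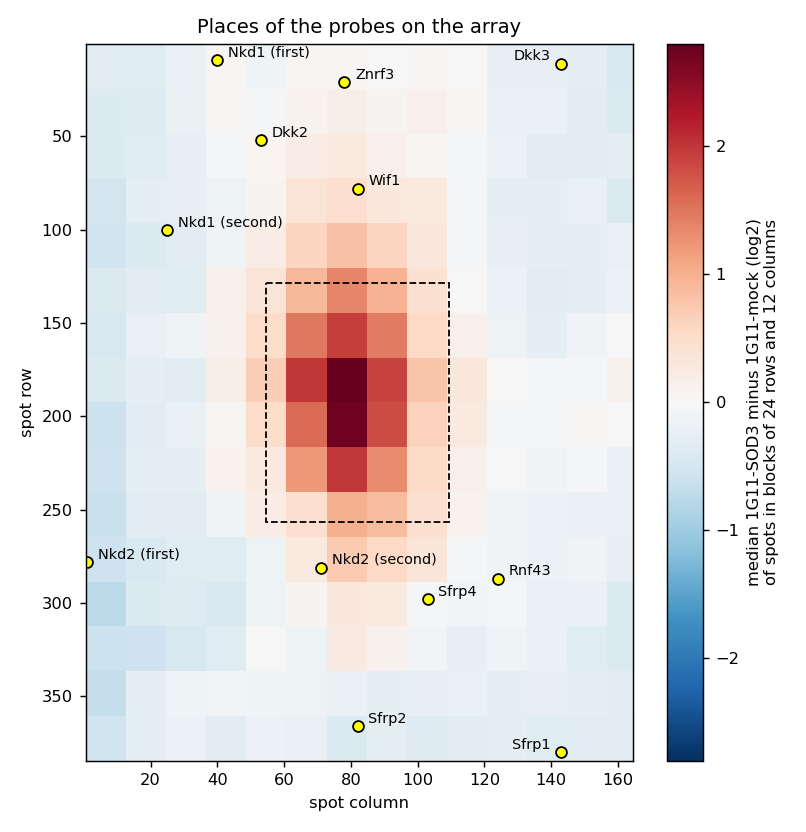
Places of the 12 antagonist probes (yellow points) by spot row (y axis) and spot column (x axis) of the array, over the median log2 difference between the lines of spots that at least 3 arrays measured well above background, in blocks of 24 rows and 12 columns. The dashed box marks the middle of the array. No antagonist spot lies in the box, and the first Nkd2 probe lies at the left edge, where the blocks are blue.

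Some fibroblast and mural markers were also higher in 1G11-SOD3 cells. Of 10 probes of this list, 5 were called higher and 0 lower, against 1.87% and 1.06% of all probes. Called were the smooth muscle actin Acta2 (log2 difference 3.01), the collagens Col1a1 (3.097) and Col3a1 (1.43), the proteoglycan Lum (1.90) and the receptor Pdgfrb (2.40). Not called were Pdgfra (0.52), Dcn (0.29), Cspg4 (0.13), Thy1 (-0.37) and Rgs5 (-0.54). With separate surfaces taken off, Acta2, with 3 of its 10 spots in the middle, was at 2.58. Col1a1 was then at 2.51, Col3a1 at 1.66 and Pdgfrb at 2.23, and all of these kept the call. Lum was not well above background on any 1G11-mock array. Reckoned as for Sfrp2, it was 2.56-fold higher, but its 95% interval began at a log2 difference of 1.0005, a smaller change. Its log2 difference was 1.80 with the single surface taken off (limma adjusted p = 0.041), which kept the call, and 1.60 with separate surfaces (adjusted p = 0.068), which lost it. The summed level of the 10 probes, on the unlogged scale, was 75579 to 76890 on the 1G11-mock arrays and 141420 to 371283 on the 1G11-SOD3 arrays. The highest was that of 1G11-SOD3 replicate 3. On it Col3a1 had a log2 intensity of 17.58, against 16.65 and 16.60 on the other 1G11-SOD3 arrays. Dcn was at 17.05 on it, against 13.51 and 13.59. Rgs5 was well above background on no array. The fits without 1G11-SOD3 replicate 3 gave Sfrp2 a log2 difference of 2.98. Fewer or more cells of a type and less or more RNA per cell cannot be told apart in such samples, and the part of these markers in the Sfrp2 result was not tested.

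Of 13 probes of endothelial markers, 3 were well above background on all 6 arrays (Eng, Vwf and one of the Kdr probes) and 7 on none, among them that of Cdh5, which encodes VE-cadherin. Vwf, the von Willebrand factor, was called lower (log2 difference -1.66, limma adjusted p = 0.0034), and none of the 13 was called higher. Eng (-1.05, adjusted p = 0.084) and that Kdr probe (-0.51, adjusted p = 0.30) were not called. The arrays of the lines did not overlap for these 3 probes alone of the 13, against 20.6% of all probes. With separate surfaces taken off, Vwf was at -1.50 (adjusted p = 0.035) and kept the call, Eng was at -0.73 and Kdr at -0.42. The median difference of the 13 probes was -0.03. None of 8 epithelial and 8 leukocyte marker probes was called, of which 1 (Krt19) and 2 (Cd3e and one of the Itgam probes) were well above background on all arrays. By gene, 5 of the 11 endothelial markers (Cdh5, Emcn, Erg, Tek and Tie1) were not measured above background on any array. The paper states that VE-cadherin staining was used regularly to verify that 1G11 cells are endothelial. A Kdr probe well above background on no array had a mean log2 intensity of 6.86, while the other had 12.64. A probe at background thus does not show that the transcript is absent.

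**Figure D4:**
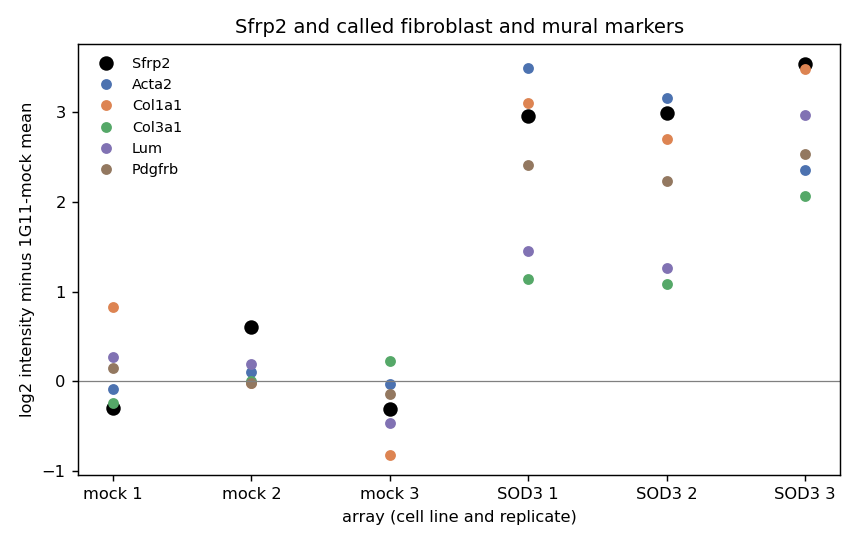
Log2 intensity minus the 1G11-mock mean (y axis) on each of the 6 arrays (x axis) for Sfrp2 (black) and the 5 fibroblast and mural markers called higher (colors). Each point is 1 array. All 6 genes were drawn because they were called higher in 1G11-SOD3 cells, so that their higher place there follows from the choice. Sfrp2 differed by 3.17 on average. The other 5 of the 10 fibroblast and mural marker probes, which were not called, are not shown.

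The rest of the pathway was read from 6 lists of 65 further genes with 88 probes, some of which stand in more than 1 list, and 39 of the 88 were well above background on all 6 arrays and 35 on none. In all, 4 of the 88 probes were called higher and 0 lower in 1G11-SOD3 cells (limma; at an unadjusted p under 0.05, 11 were higher and 6 lower), against 1.87% and 1.06% of all probes. Among 18 probes of other Wnt antagonists and 7 of R-spondins and Lgr receptors none was called, nor among 15 of the beta-catenin destruction complex, in which both probes of Axin2, itself a common Wnt target, were well above background on no array. One of 19 probes of Frizzled, Lrp and Dishevelled genes (Lrp6), 1 of 13 of TCF/LEF factors and co-activators (Tcf7l1) and 2 of 27 of Wnt target genes (Ccn5 and Ccnd1) were called. With the replicate number as a block, 1456 probes of the array were called higher, against 1041 without it. In these lists 6 were then called higher, Kremen1 and a second Lrp6 probe being added.

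Of these, Ccn5 alone lay outside the middle of the array. Ccn5, a secreted matricellular protein, had log2 intensities of 8.72, 7.97 and 8.55 in 1G11-mock and of 11.64, 12.27 and 12.27 in 1G11-SOD3 cells, with a difference of 3.65 (SE 0.277, limma adjusted p = 0.00012), and was called under every alternative. The spots of Lrp6, Tcf7l1 and Ccnd1, which encodes cyclin D1, lie in the middle, and are given apart. Their log2 differences were 1.53, 2.20 and 2.69, and the median differences of their neighbours were 2.23, 1.97 and 1.95. The called Lrp6 probe was well above background on no 1G11-mock array. Reckoned as for Sfrp2, its change was 2.41-fold higher. The limma interval of its log2 difference began at 0.76, a smaller change, so that no least change is given for it. With separate surfaces taken off, the log2 differences of Lrp6, Tcf7l1 and Ccnd1 were -0.90, 0.19 and 0.65, and none was called. The count of probes called higher in these lists was 1 with the middle left out.

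The genes most like each called antagonist over the 6 arrays were sought among probes outside the middle and well above background on all arrays, by the root mean square difference of mean-centred log2 values. For Sfrp2 they were Hopx (0.541), Dennd2a (0.572) and Col1a1 (0.581). For Rnf43 they were Acaa1b (0.111), Metap1d (0.117) and Cdkl2 (0.125), and for the first Nkd2 probe Cdc14b (0.117), Cpd (0.122) and Itpripl2 (0.126). This measure grows with the size of a change, so that its values are not compared between the antagonists.

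Promoter windows of 250 bases before the gene start (RefSeq, GRCm38.p6) were at hand for 6 of the 10 genes. They were searched on both strands for the TCF/LEF core CTTTGA, the hypoxia response core ACGTG and the NF-kB consensus, without overlap between the motifs. CTTTGA and the NF-kB consensus were in none of these windows, against 13.8% and 7.3% of the 32851 promoters in the table. ACGTG was in the window of Wif1 alone, where the overlapping matches on both strands begin 210 and 209 bases before the gene start, against 16.6% of all promoters. A match of letters is a description, and the arrays do not bear on binding there.

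**Figure D5:**
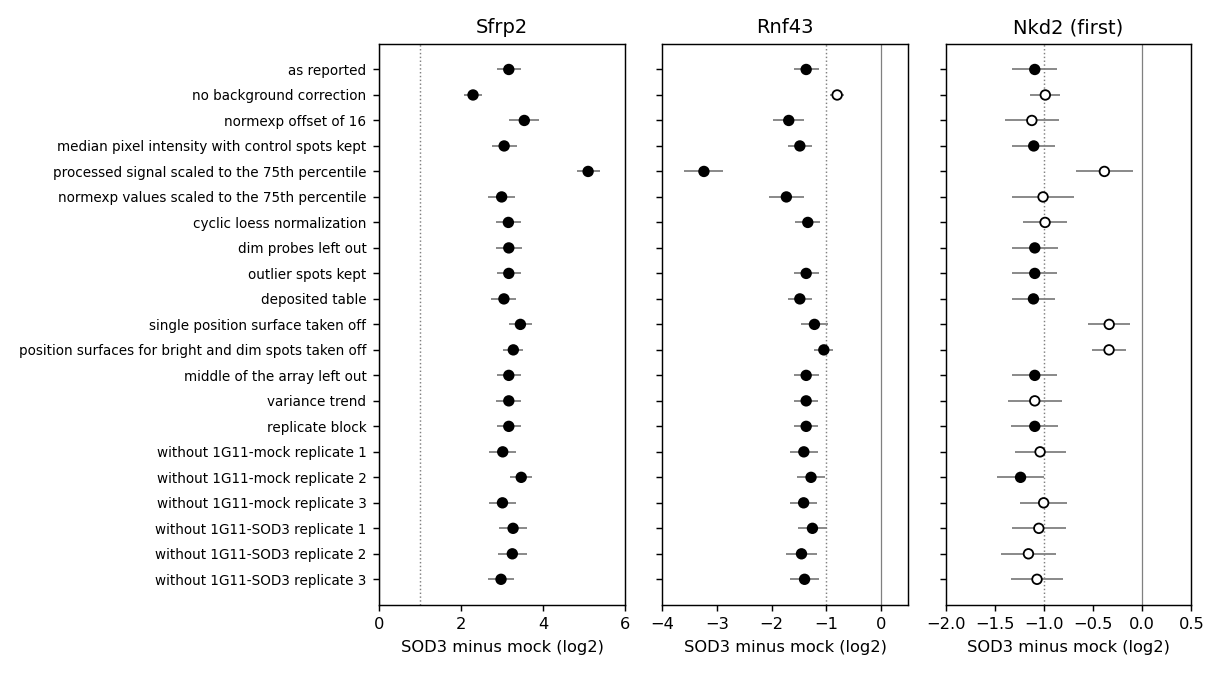
Log2 difference between the lines (x axis, with SE as bars) for Sfrp2, Rnf43 and the first Nkd2 probe under each setting of processing (y axis). Filled points were called and open points were not, and dotted lines mark 2-fold. Sfrp2 was called under all settings, Rnf43 under all but that without background correction (-0.80) among those that kept its probe, and the first Nkd2 probe under 6 of 14 alternatives and 1 of 6 fits without an array.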

How the data were processed

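The arrays were Agilent SurePrint Mouse G3 single-color arrays, 3 per cell line, read with Agilent Feature Extraction 10.7.3.1. The authors deposited the scanner intensity of each spot and of its local background, not normalized and written with 3 significant digits, and a table of log2 values with normexp correction and quantile normalization. That table was matched to within 0.005 when recomputed from median pixel intensities with control spots kept, and served as an alternative. The genome build of the probes is not given in the sources used here.

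Mean spot intensities were corrected with normexp (offset of 50), taken to log2 and quantile normalized without control spots with limma 3.58.1 in R 4.3.3. Outlier spots were left out after that, and the spots of a probe were averaged. Lines were compared with limma and Benjamini-Hochberg adjustment over 55681 probes. The p-values measure the spread between biological replicates, and 3 arrays per line limit the precision. The smallest p of an exact permutation test of 3 against 3 arrays is 0.1. The procedure was tested on simulated data, where part of the changed probes went uncalled at the noise of the real spots.

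Same-numbered arrays of the lines, which share a slide column, had deviations that correlated at 0.165, 0.103 and 0.157 across probes, and the number was therefore used as a block in an alternative. Genes named are all 10 members, Sod3, called genes of the lists, defining markers of cell types and the 3 most alike profiles of each called member. Axin2, Kremen1 and Fzd2 fall outside this rule and were chosen after their values were seen. Members, gene lists, the neighbourhood of a spot and motifs were chosen with earlier results of these data known. The 2 further promoter motifs were added after the first had given no match. Alternatives were another background correction, offset, pixel summary, normalization or variance model, dim probes or the middle left out, outlier spots kept, the block, the deposited table, each array left out, and a smooth surface (mgcv 1.9.3) taken off each array. The surface was first fitted on bright spots and taken off all. After its results on these data and on simulated data with a dim middle had been seen, separate surfaces for spots that at least 3 arrays measured well above background and for the others were added, and both are given. Copies of the same probe were compared for the 399 probes printed 10 times, over spots with a mean log2 intensity above 9. The median SD of their difference between lines went from 0.498 to 0.156 with separate surfaces. Dimmer spots were not checked in this way, and of the antagonist probes only the first Nkd2 probe is that bright. Python 3.11.15, pandas 2.3.3, numpy 2.4.6 and matplotlib 3.10.9 served for sequences and figures.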

Additional observations from a re-analysis of the deposited data

How the results depend on the processing

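Sfrp2 was called higher under all 14 alternatives (log2 difference 2.29 to 5.10) and without each array (2.98 to 3.47), and Rnf43 was called lower under 12 of the 13 alternatives that kept its probe and without each array (-1.45 to -1.25). Signal over background limits these values, since only 3 of the 12 antagonist probes remain once dim probes are left out. The number of antagonists called higher was 2 instead of 1 with the processed signal (set to a common 75th percentile), which added Dkk3 (1.24). The number called lower, 2 as reported, was 0 without background correction, 4 with the processed signal, and 1 with an offset of 16, normexp values scaled to the 75th percentile, cyclic loess, dim probes left out, a variance trend, the single surface, and separate surfaces for bright and dim spots. Without 1 array it was 1 to 2. The replicate block changed no call of an antagonist. In the other Wnt lists, 4 probes were called higher as reported, 1 without background correction or with the middle left out, 2 with the single surface or with separate surfaces, 6 with normexp values scaled to the 75th percentile, 6 with the replicate block, and 1 to 5 without 1 array. The lowest of these, 1, was reached without 1G11-mock replicate 2 or 3 and without 1G11-SOD3 replicate 1 or 3. With either kind of surface the probes called were those of Ccn5 and of Fzd2, a spot outside the middle. Fzd2 was at 1.01 with both (limma adjusted p = 0.042 and 0.026), against 0.71 and not called as reported. Another Fzd2 probe, at 0.84 and 0.81 with the surfaces, was not called. The number called lower was 0 as reported, 5 with the processed signal and 0 to 1 without 1 array.

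The processed signal moved the median of all probes to -0.52 and normexp values scaled to the 75th percentile moved it to -0.34. With normexp values scaled to the 75th percentile 1477 probes of the array were called higher and 1041 lower, and with the replicate block 1456 and 804. With the processed signal 1200 probes of the array were called higher and 9918 lower, against 1041 and 588 as reported, 659 and 1619 with the single surface, 428 and 503 with separate surfaces and 299 and 544 with the middle left out. Relative to that median, the probes called lower with the processed signal were at -2.72 (Rnf43), -1.48 (Sfrp4), -1.13 (second Nkd2 probe) and -0.91 (Wif1). Some differences changed sign. Wif1 was at -1.44 with the processed signal, -0.31 with normexp values scaled to the 75th percentile, -0.20 with the single surface and -0.044 with separate surfaces. Znrf3 was at -0.23 and -0.11 with the same 2 scalings. Relative to the median of all probes, Znrf3 was at 0.29 and 0.23 and did not change sign, nor did Wif1 (0.025) with normexp values scaled to the 75th percentile. Sfrp1 was at -0.0099 without background correction, -0.0056 with median pixel intensity, -0.0067 in the deposited table and -0.39 with normexp values scaled to the 75th percentile (-0.055 relative to that median). The first Nkd1 probe was at 0.051 without background correction, 0.017 with median pixel intensity, 0.017 in the deposited table and 0.070 with the single surface. Without 1 array, the ranges that crossed 0 were -0.36 to 0.33 (Sfrp1), -0.67 to 0.13 (Sfrp4), -0.12 to 0.27 (Wif1), -0.40 to 0.33 (Dkk2), -0.080 to 0.12 (first Nkd1 probe), -0.40 to 0.0036 (second Nkd2 probe) and -0.084 to 0.23 (Znrf3). The causes of these changes were not tested.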
